A study of Mus musculus with 13 samples.

Results

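Wdfy1 and 9 other genes of the early and late endosome were followed in the hippocampus of mice lacking most Tmem184b mRNA. The 10 genes were Wdfy1, Wdfy2, Wdfy3, Eea1, Hgs, Pikfyve, Pik3c3, Rab5a, Rab7 and Zfyve9, out of 25025 genes listed in each of the 2 tables. Wdfy1 was chosen by its normalized counts in these mice, which were higher in the 5-month mutants and scattered within both genotypes at 15 months. Its values are therefore described and not tested. The other 9 genes were picked for their place in the same pathway, with earlier results of these data known. They were tested in a fit of all genes.

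RNA was sequenced from hippocampi of C57BL/6 wild type mice and of mice homozygous for a Tmem184b gene-trap allele (GT/GT), with 1 library per mouse. At 5 months there were 4 wild types and 3 mutants, and at 15 months 3 wild types and 3 mutants. The mutants carried the allele Tmem184bGt(IST10294F4) in every cell, since a gene trap is not restricted to a cell type, and littermates served as controls where possible. The study's methods state that the 15-month wild types were all female while the other groups held both sexes. Sex was therefore unbalanced between the genotypes at 15 months, and it is not labelled per library. Its part in any 15-month difference was not tested.

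Phosphatidylinositol 3-phosphate (PI3P) is the lipid that marks early endosomes. The lipid kinase Vps34, encoded by Pik3c3, makes it, and the kinase encoded by Pikfyve converts it to PI(3,5)P2 as endosomes mature. Proteins with a FYVE domain bind PI3P and are recruited by it. The small GTPase Rab5 recruits Vps34 and tethers such as EEA1 on early endosomes, and Rab7 takes its place on late endosomes. In neurons this system sorts receptors and returning axonal cargo, and WDFY1 is known as an adaptor of the endosomal Toll-like receptors TLR3 and TLR4.

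In 7 of the 10 genes the part of the coding sequence that spells the FYVE signature was found. It is shown here because it is the feature by which these otherwise different genes were grouped. Capitals mark the 27 bases of the signature, a basic, zinc-binding stretch that contacts PI3P, and lower case the 6 bases on each side, all read 5′ to 3′ from GENCODE M21 transcripts.

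Wdfy1: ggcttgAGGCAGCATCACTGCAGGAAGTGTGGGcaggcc

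Wdfy2: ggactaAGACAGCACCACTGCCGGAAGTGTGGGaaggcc

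Wdfy3: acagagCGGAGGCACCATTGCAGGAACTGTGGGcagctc

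Eea1: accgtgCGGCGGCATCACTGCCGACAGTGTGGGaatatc

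Hgs: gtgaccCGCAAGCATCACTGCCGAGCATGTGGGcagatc

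Pikfyve: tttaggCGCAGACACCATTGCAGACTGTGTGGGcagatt

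Zfyve9: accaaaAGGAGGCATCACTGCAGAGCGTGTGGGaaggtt

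The signature sat near the end of the reading frame in some proteins and in the first part in others. It began at codon 310 of 410 in Wdfy1 and at codon 310 of 400 in Wdfy2, the nearest relative of Wdfy1. In Eea1 it began at codon 1370 of 1411 and in Wdfy3 at codon 3454 of 3508. In Hgs it began at codon 178 of 767, in Pikfyve at codon 187 of 2052 and in Zfyve9 at codon 689 of 1397. Of 21901 coding genes searched, 25 held it (0.114%), and these 25 were among the 32 FYVE genes listed.

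The targeted gene followed its label in every library. At 5 months its normalized counts were 2415, 2329, 2356 and 2475 in the wild types and 44.9, 43.2 and 31.3 in the mutants. At 15 months it had 2346, 2346 and 2413 in the wild types and 36.6, 29.4 and 57.8 in the mutants. Summed normalized counts per library ran from 28086279 to 28696023 in the 5-month wild types and from 29111590 to 32085550 in the 5-month mutants. At 15 months they ran from 29747718 to 30279766 in the wild types and from 31128309 to 32383546 in the mutants. At each age every mutant was above every wild type. Raw depth is not held by these values.

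Wdfy1 was higher in every 5-month mutant than in any 5-month wild type. The 4 wild types had 256, 243, 207.5 and 228 normalized counts, and the 3 mutants had 649, 716 and 641. The means were 234 ± 21.03 (SD, n = 4) and 669 ± 41.2 (SD, n = 3), a ratio of 2.86. Within each genotype the highest mouse was 1.24 times the lowest among wild types and 1.12 times among mutants. These values chose the gene, and so no test is attached to them.

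At 15 months the 2 genotypes overlapped for Wdfy1. The wild types had 347.5, 296 and 607.5 normalized counts, and the mutants had 663, 396 and 387. The means were 417 ± 167 (SD, n = 3) and 482 ± 157 (SD, n = 3). One wild type and one mutant were high and the other 4 mice lay between 296 and 396, so the spread within a genotype exceeded the difference between the means. On the log2 scale the difference of mutants from wild types was 0.23, and it ran from -0.02 without the highest mutant to 0.54 without the highest wild type. The ages were normalized in separate tables, so no level is tested between them.

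**Figure D1:**
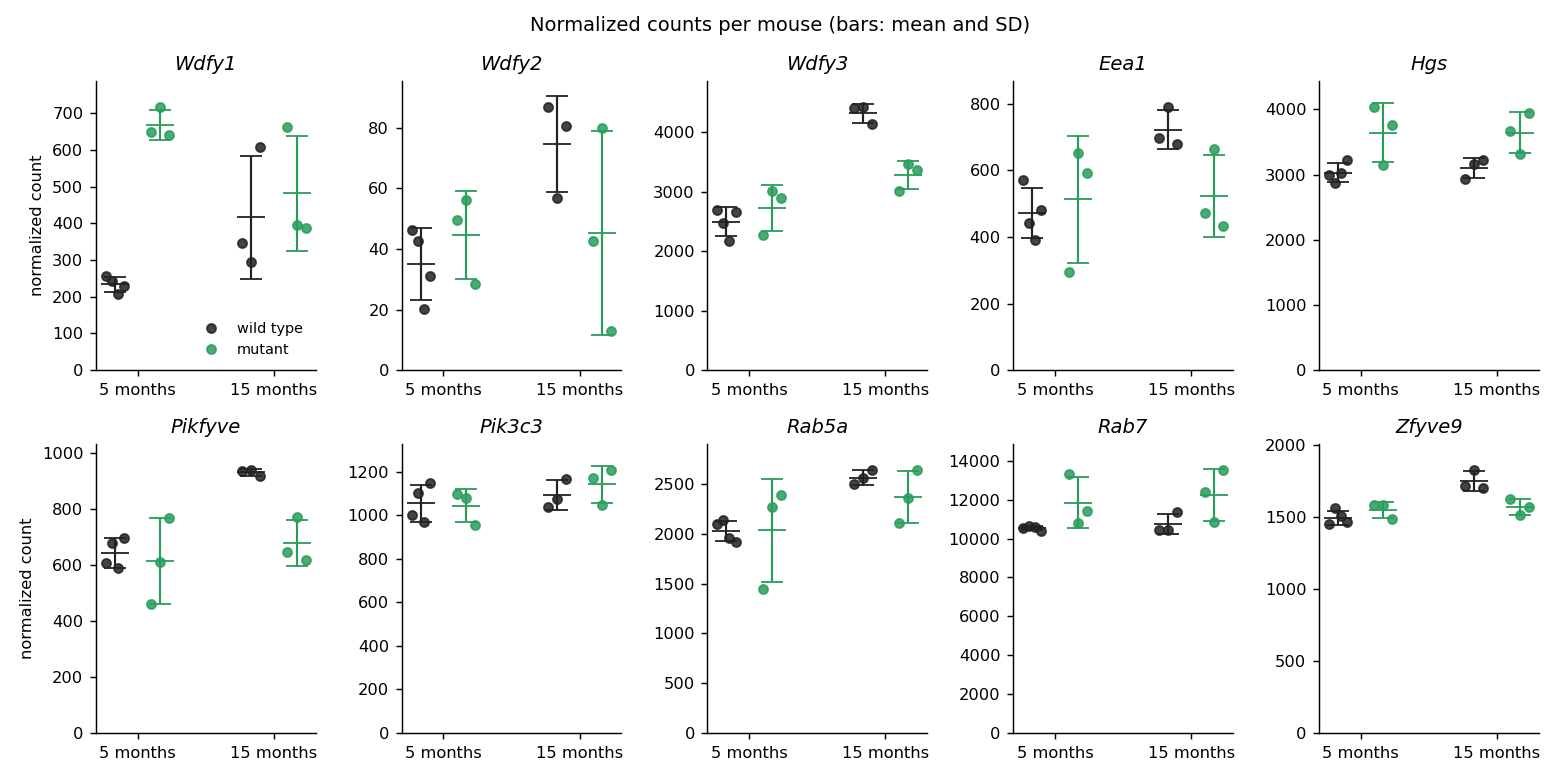
Normalized count (vertical axis, from 0) of each of the 10 genes in each mouse, wild types in black and mutants in green at 5 and 15 months, with bars for the mean and SD. Wdfy1 separates the genotypes at 5 months (207.5 to 256 against 641 to 716) and overlaps at 15 months. Rab7 also separates at 5 months, beside 18.5% of all genes. Wdfy3, Eea1, Hgs, Pikfyve and Zfyve9 separate at 15 months, beside 34.1% of all genes.

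Summed levels of some cell type markers differed between the same mice. The summed level of 6 choroid plexus markers ran from 3230 to 165303 normalized counts in the 5-month wild types and from 738 to 3117 in the 5-month mutants. The 5-month wild type with the lowest Ttr, the choroid plexus transthyretin gene, at 2570, had 243 normalized counts of Wdfy1, and the wild type with the highest Ttr, at 157867, had 228. The summed level of 5 astrocyte markers ran from 31793 to 35421 in the 5-month wild types and from 40486 to 42772 in the mutants. Of these 5 genes only Gfap passed the test, with means of 17241 and 25070.5 normalized counts, and 2 of the 5 were lower in mutants. At 15 months the choroid plexus sum ran from 902 to 2103 in the wild types and from 757.5 to 28713 in the mutants. The part of tissue makeup in the Wdfy1 values was not tested. In bulk tissue, fewer cells of a type and less RNA per cell cannot be told apart.

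Per kilobase of the longest protein-coding transcript, Wdfy1 was among the least abundant of the 10 genes. In the 5-month wild types Rab7 was highest at 4886 ± 48.4 normalized counts per kilobase (SD, n = 4), followed by Hgs at 1041 ± 50.5, Rab5a at 858 ± 43.6, Pik3c3 at 324 ± 25.8, Zfyve9 at 231 ± 7.64 and Wdfy3 at 175 ± 16.7. Below them came Eea1 at 61.0 ± 9.84, Pikfyve at 57.2 ± 4.71, Wdfy1 at 51.4 ± 4.62 and Wdfy2 at 5.27 ± 1.79. The ranges of Eea1, Pikfyve and Wdfy1 overlapped between mice and do not order them. Their order within each wild type was not examined. In the 5-month mutants Wdfy1 stood at 147 ± 9.05 per kilobase (SD, n = 3), above Eea1 and Pikfyve in every mutant. With the union of exons as the length, the 5-month wild type level of Wdfy1 was 36.0 per kilobase.

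None of the other 9 genes passed an adjusted p of 0.05 at 5 months, in limma with Benjamini-Hochberg adjustment over all genes tested. Of all 15563 genes tested, 2.27% passed. At an unadjusted p under 0.05 there was 1 gene, Hgs, beside 20.5% of all genes. In 1 gene, Rab7, the genotypes did not overlap, beside 18.5% of all genes. The median log2 difference of the 9 genes was 0.05, beside 0.00 over all genes tested.

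The other genes of the Wdfy name did not pass the test at 5 months. Wdfy2, which shares its arrangement of WD repeats around a FYVE domain, had normalized counts of 46.4, 42.6, 20.1 and 31.1 among wild types and 49.4, 56.2 and 28.4 among mutants. The log2 difference was 0.35 ± 0.36 (SE), with an adjusted p of 0.632 in limma. Wdfy3, which encodes the autophagy scaffold ALFY, had 2694, 2479, 2171 and 2656 in the wild types and 2281, 3007 and 2898 in the mutants. Both genes overlapped between genotypes. Wdfy4 had a log2 difference of 0.17 with an adjusted p of 0.749 in limma.

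Of the 9 genes tested, Hgs had the smallest p at 5 months. It encodes HRS, the ESCRT-0 subunit that gathers ubiquitinated cargo, and had 2997, 2864, 3031 and 3220 normalized counts in the 5-month wild types and 4032, 3145 and 3757 in the mutants. The log2 difference was 0.26 ± 0.09 (SE), with an adjusted p of 0.139 in limma. One mutant lay below the highest wild type, and without that mutant the difference was 0.36 with an adjusted p of 0.029 in limma, in a fit that called 5.80% of all genes. Zfyve9, which encodes SARA, the anchor that presents SMADs to TGF-beta receptors, ran from 1449 to 1559 in the wild types and from 1484 to 1586 in the mutants.

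A single 5-month mutant was the lowest or the highest of the 7 mice in several genes. Mutant 1 had 295 normalized counts of Eea1, the Rab5 and PI3P tether, where the other mutants had 652 and 593 and the wild types ran from 392 to 572. It had 1446 of Rab5a, where the other mutants had 2276 and 2391, and 461 of Pikfyve, where they had 612 and 770. It was the lowest of the 7 mice for all 3 genes, and the highest for Rab7 and Hgs. Without it the log2 differences were 0.41 for Eea1, 0.20 for Rab5a and 0.10 for Pikfyve, and 0 of the 9 genes passed, beside 5.43% of all genes.

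The lipid kinase gene Pik3c3 overlapped between genotypes at 5 months. It ran from 968 to 1147 normalized counts in wild types and from 956 to 1095 in the mutants, with a log2 difference of -0.01 ± 0.09 (SE). Rab7 had 10539, 10664, 10577 and 10413 in the wild types and 13301, 10799 and 11442 in the mutants. Every mutant was above every wild type, by a log2 difference of 0.16 with an adjusted p of 0.283 in limma, though the difference was -0.004 with quantile normalization. The Rab5a paralogs Rab5b and Rab5c had log2 differences of 0.21 and 0.07 and adjusted p-values of 0.186 and 0.561 in limma.

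At 15 months 2 of the 9 genes, Wdfy3 and Pikfyve, were lower in mutants at an adjusted p under 0.05 in limma. Over all 15541 genes 6.02% passed in either direction and 4.03% in this direction. Wdfy3 had normalized counts of 4410, 4422 and 4134 among wild types and 3013, 3465 and 3360 among mutants. It lies at chr5:101832956-102069921 (mm10, GENCODE M21) on the minus strand. It fell by 0.40 ± 0.07 on the log2 scale (SE), with an adjusted p of 0.032 in limma. All 3 mutants lay below all 3 wild types.

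Pikfyve, at chr1:65186683-65278695 on the plus strand, had 937, 940 and 918 normalized counts in the 15-month wild types and 647, 771 and 617 in the mutants. It fell by 0.46 ± 0.10 on the log2 scale (SE), with an adjusted p of 0.039 in limma. The wild types differed by a factor of 1.02 and the mutants by 1.25. Each of the 2 calls was lost on leaving out any 15-month wild type or mutant 1, in fits that called 1 to 11 genes in all. Without mutant 2, 4 of 9 passed, beside 9.81% of all genes. Over these fits the log2 difference ran from -0.44 to -0.34 for Wdfy3 and from -0.56 to -0.40 for Pikfyve.

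Differences at 15 months moved with GC content and gene length across all genes. Spearman's rho across 15313 genes was 0.51 with GC content and -0.44 with length, and at 5 months it was 0.14 and 0.12, and genes are not independent replicates. After each library was corrected for both, the log2 difference was -0.06 for Wdfy3, with an adjusted p of 0.744 in limma, and -0.03 for Pikfyve, with an adjusted p of 0.892. None of the 9 genes passed after that correction, under which 0.170% of all genes passed at 15 months. Wdfy1 after correction differed by 1.54 at 5 months and 0.43 at 15 months.

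**Figure D2:**
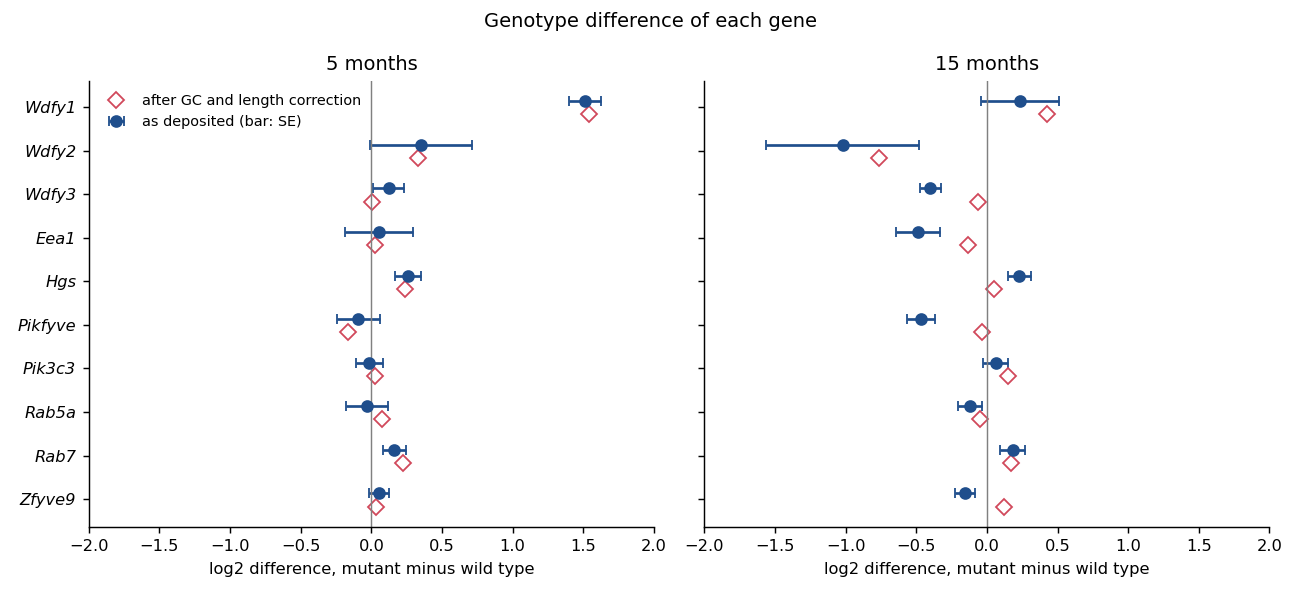
Log2 difference of mutants from wild types (horizontal axis) for each of the 10 genes at 5 and 15 months, filled circles as deposited with SE bars and open diamonds corrected for GC content and length. At 15 months the values of Wdfy3 and Pikfyve move from -0.40 and -0.46 to -0.06 and -0.03, and at 5 months Wdfy1 is at 1.51 and 1.54.

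The remaining genes did not pass at 15 months. Eea1 had normalized counts of 697, 789 and 680 among wild types and 471, 664.5 and 433 among mutants, a log2 difference of -0.49 with an adjusted p of 0.078 in limma. Hgs had 2932, 3158 and 3222 in the wild types and 3669, 3312 and 3943 in the mutants, a log2 difference of 0.23 with an adjusted p of 0.104. Zfyve9 ran from 1701 to 1827 in the wild types and from 1515 to 1627 in the mutants. In all 3 of these genes the genotypes did not overlap.

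Across the 9 genes the genotypes did not overlap in 5 at 15 months, 4 lower and 1 higher, while 34.1% of all genes did not overlap. The median log2 difference of the 9 genes was -0.15, beside 0.02 over all genes tested, and 4 of them had an unadjusted p under 0.05, beside 28.8% of all genes. Wdfy2 was the most variable, with normalized counts of 86.7, 56.7 and 80.7 among wild types and 42.8, 80.0 and 12.9 among mutants. Pik3c3, Rab5a and Rab7 overlapped, with log2 differences of 0.06, -0.12 and 0.18.

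The genotype effect was compared between the ages in a fit of all 13 libraries, in which 1.75% of 15340 genes passed. None of the 9 genes passed. The smallest adjusted p was that of Wdfy3, 0.072 in limma, whose effect at 15 months minus that at 5 months was -0.52 ± 0.14 (SE) on the log2 scale. Without 5-month mutant 1, 3 of the 9 genes passed, Wdfy3, Eea1 and Pikfyve, with differences of -0.65, -0.90 and -0.56, in a fit that called 13.8% of all genes. No such test was made for Wdfy1, since the contrast between the ages chose it.

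Wdfy1 lies at chr1:79702262-79776143 on the minus strand (mm10, GENCODE M21), and 4 tested coding genes on each side were read for comparison. Ap1s3, at chr1:79606876-79671972 on the same strand with a gap of 30.3 kb, was also higher in 5-month mutants. It encodes a sigma subunit of the AP-1 clathrin adaptor. It had normalized counts of 489, 167, 244 and 211 among wild types and 705, 724 and 2040 among mutants. The log2 difference was 1.99 ± 0.40 (SE), with an adjusted p of 0.037 in limma, and all mutants were above all wild types.

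Within the 5-month mutants the order of the mice differed between Ap1s3 and Wdfy1. Mutant 3 had the most Ap1s3 at 2040 normalized counts and the least Wdfy1 of the 3 mutants at 641. The Ap1s3 call was lost without mutant 3, where the log2 difference was 1.48 with an adjusted p of 0.1101 in limma, and it was called in 3 of 7 such fits. At 15 months Ap1s3 had 536, 539 and 786 in the wild types and 644, 749 and 483 in the mutants, a log2 difference of 0.01.

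Mrpl44, a mitochondrial ribosome gene on the opposite strand that overlaps the start of Wdfy1, did not pass at either age. It ran from 750.5 to 819 normalized counts in the 5-month wild types and from 717 to 785 in the mutants. Serpine2, Scg2, Cul3, Kcne4 and Utp14b did not pass at either age. Dock10, a guanine nucleotide exchange factor gene 725 kb away, fell by 0.67 on the log2 scale at 15 months with an adjusted p of 0.027 in limma. It had a log2 difference of -0.36 with an adjusted p of 0.216 after correction for GC content and length.

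**Figure D3:**
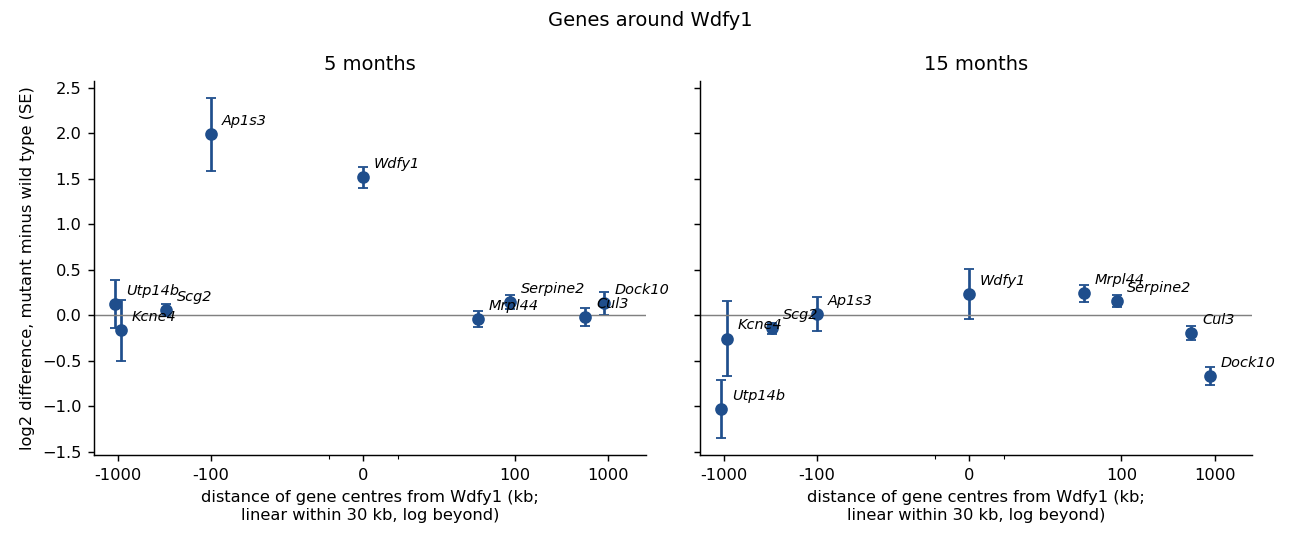
Log2 difference of mutants from wild types (vertical axis, bars SE) against the distance of each gene's centre from that of Wdfy1 in kb (linear within 30 kb, log beyond) at 5 and 15 months. At 5 months Wdfy1 and Ap1s3 stand at 1.51 and 1.99 and the other 7 genes between -0.17 and 0.15.

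The 5 genes whose log2 values followed those of Wdfy1 most closely over the 13 mice were found by the root mean square difference after centring each age. They were 4930511M06Rik at 0.32, Map3k7cl at 0.32, Rn45s at 0.33, Smyd1 at 0.37 and Myl1 at 0.37, out of 15339 genes ranked, and Wdfy1 varied around its own age means by 0.62. 4930511M06Rik, an antisense RNA gene, had 120, 82.8, 75.6 and 105 normalized counts in the 5-month wild types and 261, 201 and 412 in the mutants. Rn45s, the precursor of ribosomal RNA, ran from 5088 to 10124 in the 5-month wild types and from 18017 to 25373 in the mutants. Since likeness to Wdfy1 chose these genes, their differences are a description.

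The pattern rested mainly on the step between genotypes at 5 months. When values were centred on each group of age and genotype instead, 0 of the 5 genes were shared, and Drd2 and Syt9 came closest at 0.17. Map3k7cl, Smyd1 and Myl1 had under 100 normalized counts in every mouse.

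**Figure D4:**
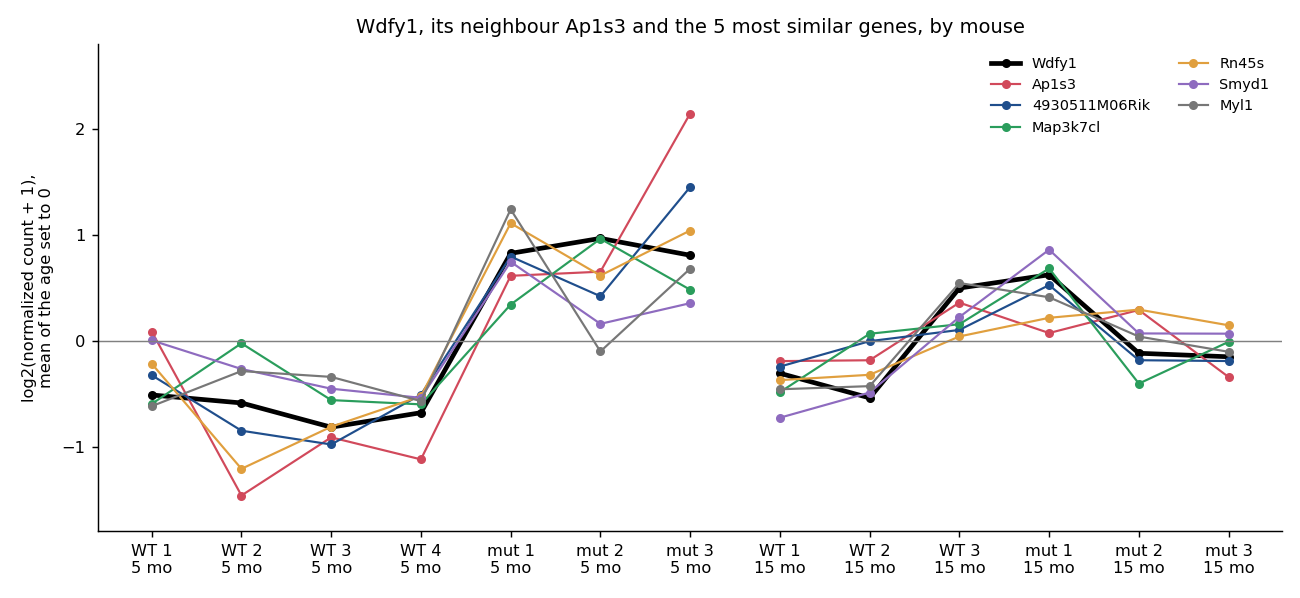
Log2(normalized count + 1) of Wdfy1 (thick black), Ap1s3 and the 5 most similar genes in each of 13 mice (horizontal axis), with the mean of each age set to 0. Every gene shown is higher in each 5-month mutant than in any 5-month wild type, and at 15 months Wdfy1 is high in wild type 3 and mutant 1.

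The wider pathway was read from 8 lists holding 138 further genes, of which 137 were in the tables and 134 passed the filter on low values. At 5 months 1 of the 134 passed, and at 15 months 7 passed, 6 lower and 1 higher. The shares over all genes were 2.27% and 6.02%. The median log2 difference of the 134 genes was 0.00 at 5 months and -0.04 at 15 months, beside 0.00 and 0.02 over all genes tested.

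At 5 months the gene that passed was Appl2, a Rab5 effector that marks a subset of early endosomes. It had normalized counts of 1263, 1395, 1327 and 1312 among wild types and 863, 1062 and 976 among mutants. It fell by 0.46 ± 0.09 on the log2 scale (SE), with an adjusted p of 0.035 in limma, and 3 of 3 mutants were below every wild type. It was called in 2 of 7 fits that each left out 1 mouse, with adjusted p-values in limma from 0.016 to 0.109. At 15 months its genotypes overlapped.

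At 15 months Mtmr9, a catalytically inactive partner of the PI3P phosphatases, had the largest difference among the list genes that passed. It had normalized counts of 769, 815 and 882 among wild types and 494, 486 and 411 among mutants. It fell by 0.83 ± 0.11 on the log2 scale (SE), with an adjusted p of 0.025 in limma. The difference was -0.89 after correction for GC content and length, with an adjusted p of 0.031.

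The other 6 genes that passed at 15 months came from 5 lists. Lower in mutants were Rbsn (the Rab4 and Rab5 effector rabenosyn-5), Fyco1 (a Rab7 effector of autophagosome transport), Pik3c2b (a class II PI 3-kinase), Snx30 (a sorting nexin) and Appl1 (a Rab5 effector), with log2 differences of -0.39, -0.44, -0.59, -0.51 and -0.40. Higher was Chmp4b, an ESCRT-III subunit, with normalized counts of 7568, 7926 and 7536 among wild types and 9281, 9289 and 9600 among mutants. After the correction for GC content and length none of these 6 passed, and the log2 difference was -0.45 for Pik3c2b, -0.25 for Snx30, -0.22 for Rbsn, -0.18 for Fyco1, -0.05 for Appl1 and 0.14 for Chmp4b. Without any 1 of the 3 wild types or mutant 1, 0 list genes passed at 15 months.

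None of the 12 tested genes of endosomal Toll-like receptor signalling and none of the 4 retromer genes passed at 5 or 15 months. The shares over all genes were 2.27% and 6.02%. Lists this small can hold no call at such shares, so nothing about these genes is read from it. The Toll-like receptor genes had a median log2 difference of 0.02 at 5 months and 0.07 at 15 months, with 6 of 12 and 8 of 12 higher. The medians over all genes tested were 0.00 and 0.02.

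**Figure D5:**
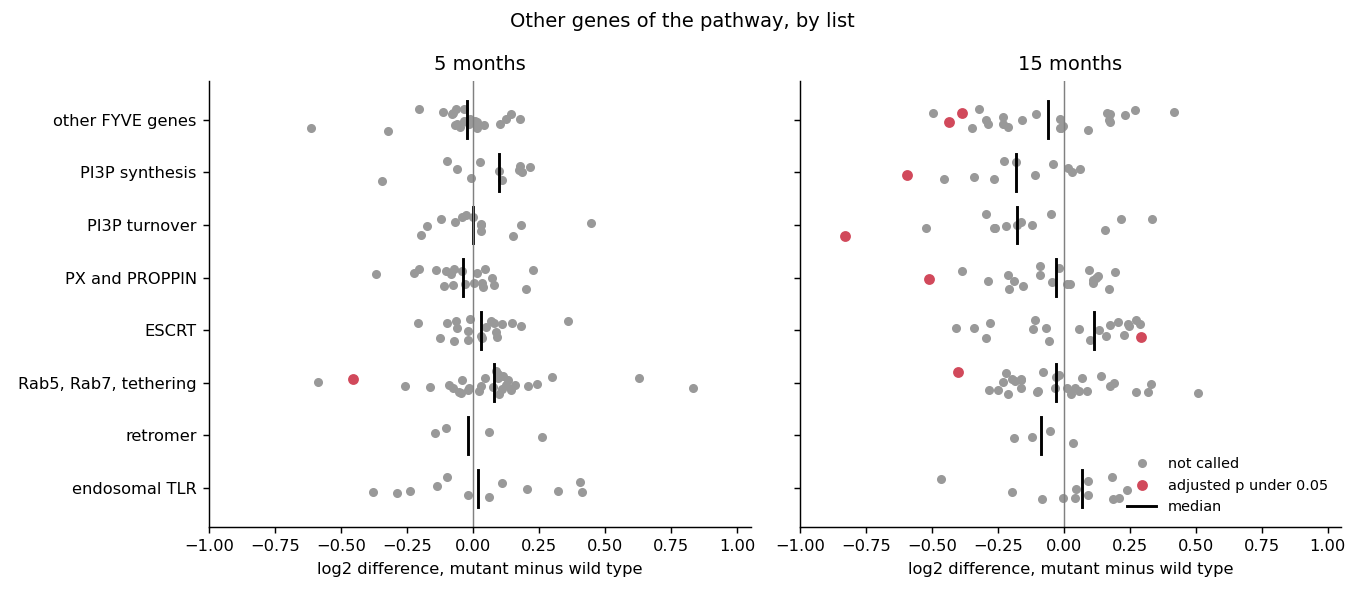
Log2 difference of mutants from wild types (horizontal axis) for each tested gene of the 8 pathway lists at 5 and 15 months, with genes at an adjusted p under 0.05 in red and list medians as black bars. Of 134 genes, 1 is red at 5 months and 7 at 15 months.

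Some marker genes of the cells in the tissue also passed the test at 15 months. The summed level of 4 oligodendrocyte markers ran from 125946 to 145949.5 normalized counts in the 15-month wild types and from 101083 to 123333 in the mutants, and Mobp and Mog passed the test as lower. Rbfox3, a neuronal nuclear marker, and Cldn5, of endothelial junctions, were higher at adjusted p-values of 0.0497 and 0.035 in limma, and the microglial Cx3cr1 was lower at 0.049. Of the 5 neuronal markers 3 were higher and 2 lower, of the 5 microglial markers 3 were higher and 2 lower, and all 5 endothelial markers were higher. Zbtb20, a hippocampal neuron marker, had 272, 225 and 331 in the wild types and 113, 155 and 81.3 in the mutants, while 2 of the 5 markers of its list were higher and the list's median log2 difference was -0.11. At 5 months Zbtb20 had a log2 difference of 1.28 with an adjusted p of 0.080 in limma. After the correction for GC content and length Mobp passed at 15 months, with an adjusted p of 0.047 in limma, and Mog, Rbfox3, Cldn5, Cx3cr1 and Zbtb20 did not, with adjusted p-values from 0.059 to 0.614. At 5 months Gfap of astrocytes was higher, and Ttr, Clic6 and Slc4a5 of the choroid plexus were lower. None of the markers of any list was at 0 in a whole group, and the part of cell makeup in the differences of Wdfy3 and Pikfyve was not tested.

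Some of the genes could share reads with other loci, which was not measured. Rab5a and Rab7 have processed pseudogenes, and Hgs has 2 entries under its symbol in the annotation. Mrpl44 overlaps Wdfy1, and whether counting used strand is not given in the sources used here, so reads from an overlap cannot be assigned to 1 gene with certainty.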

How the data were processed

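Hippocampal RNA from 13 mice was sequenced as paired-end libraries. The authors quantified reads with Salmon 0.11.1 against mm10 and normalized them with DESeq2. The deposited values are a signal, the normalized count, in a table for each age with 25025 genes. These are not raw counts: 69.3 to 88.4% of low values fell on whole multiples of a step (tolerance 0.1), under the 95% required, so no count test was run and raw depth is unknown. Limma 3.58.1 (R 4.3.3) was fitted with a trend to log2 of the normalized count plus a pseudocount of 1, leaving out genes whose mean was under 10, with Benjamini-Hochberg adjustment. Log2 differences are on that scale and understate changes of low genes. Each age was fitted on its own, and the interaction over all 13 libraries. Gene models were GENCODE M21, to which 24399 genes matched. On simulated data with 200 genes changed by 1 on the log2 scale, 87% were recovered for the 5-month comparison (15563 genes) and 91% for the 15-month comparison (15541 genes). Of the calls, 4.4% and 4.71% were false. For the difference between ages, with 200 genes changed by 1.5, 93% were recovered and 9.71% of the calls were false. The changed genes were drawn from the more abundant ones, and recovery of smaller changes was not measured. Noise was drawn for each gene on its own, without the trend with GC content and length seen at 15 months. The simulated shares of false calls therefore do not carry over to the calls in these mice.

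The members and gene lists were chosen with earlier results of these data known. Named were the 10 genes, up to 4 genes per list with the smallest p among those called, 5 patterns nearest to Wdfy1, 4 neighbours on each side, Tmem184b, Wdfy4, Rab5b and Rab5c. One gene of a marker list is not reported here. Groups came from the labels. The alternatives were other pseudocounts, filters, scalings and fits, a GC content and length correction, a replicate block and leaving out each mouse.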

Additional observations from a re-analysis of the deposited data

Results flagged for a closer look

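Among 45 sets of 4 values examined for 1 mouse far from the others, 4 stood apart, and chance alone gives about 2.2. Only the 5-month wild types held 4 mice, so every set examined came from that group. The gap to the nearest mouse was 0.894 of the range for Chmp4b, 0.934 for Mobp, 0.886 for Cldn5 and 0.943 for Map3k7cl. The mouse was wild type 4 for Chmp4b (8508 normalized counts), wild type 1 for Mobp (17447), wild type 3 for Cldn5 (2616) and wild type 2 for Map3k7cl (23.6). Groups of 3 mice were not examined.

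The genotype effect differed between the ages for 5 of the named genes tested in the fit of all 13 libraries. Rbsn, Mtmr9, Snx30 and Zbtb20 were named for passing at 5 months, at 15 months or in this fit. Their count is therefore a description. Of the 134 pathway genes 3 passed in this fit, beside 1.75% of all 15340 genes tested. Genes named for their likeness to Wdfy1, Rn45s among them, were not tested. The effect at 15 months minus that at 5 months was -0.51 for Rbsn, -1.27 for Mtmr9, -0.71 for Snx30, -2.55 for Zbtb20 and -0.80 for Dock10 on the log2 scale. The adjusted p-values in limma were 0.0445, 0.024, 0.043, 0.027 and 0.043. Mtmr9 passed in 9 of 13 fits that each left out 1 mouse, Zbtb20 in 6, Rbsn and Snx30 in 3 each and Dock10 in 2. After correction for GC content and length the adjusted p-values in limma were 0.036 for Mtmr9 and 0.046 for Zbtb20, and 0.128 for Rbsn, 0.111 for Snx30 and 0.107 for Dock10, which no longer passed.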

How the results depend on the processing

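At 5 months 354 genes passed and at 15 months 935, and 268 passed for the difference between ages. The GC content and length correction gave 943, 26 and 112, the replicate block 9, 1595 and 3, and the replicate block with that correction 158, 4 and 9. One fit of all 13 libraries gave 725 and 189, and no filter on low values gave 578 at 15 months. Leaving out 1 mouse gave 7 to 901, 1 to 1526 and 34 to 2111 genes. Of the 9 tested members, 0, 2 and 0 passed in the 3 comparisons, and leaving out 1 mouse gave 0 to 1, 0 to 4 and 0 to 3. At 15 months 0 members passed with the correction, with the block and correction together, and in 1 fit of all libraries. Of the pathway genes, 1 passed at 5 months, 2 with quantile normalization, with robust hyperparameters or in 1 fit of all libraries, 4 with the correction, 0 with the block or with both, and 0 to 3 on leaving out 1 mouse. At 15 months 7 passed, 1 with the correction, 0 with both, 4 in 1 fit of all libraries and 0 to 13 on leaving out 1 mouse. Leaving out 1 mouse or applying the correction raised the counts in some comparisons and lowered them in others. Why the counts moved was not tested. The correlation of same-numbered deviations was 0.06, -0.01 and -0.09 at 5 months and 0.01, 0.07 and 0.16 at 15 months. Between different numbers it ran from -0.157 to 0.136 at 5 months and from -0.139 to 0.107 at 15 months. So few correlations cannot settle whether replicate numbers pair the mice, and the labels state no pairing. The Ap1s3 difference at 5 months was 1.898 under the block, with an adjusted p of 0.086 in limma, and 1.99 with robust hyperparameters, with an adjusted p of 0.124.

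No result that reversed its sign had passed the test. With the correction, the value was 0.026 for Pik3c3, 0.073 for Rab5a, 0.035 for Cul3 and 0.014 for Mrpl44 at 5 months, 0.121 for Zfyve9 and 0.037 for Cul3 at 15 months, and 0.131 for Pikfyve, -0.052 for Rab7 and 0.087 for Zfyve9 between ages. With the replicate block it was 0.028 for Pik3c3, 0.028 for Mobp and 0.014 for Cul3 at 5 months. With both it was 0.068 for Pik3c3, 0.048 for Rab5a, -0.012 for Appl1, 0.040 for Mobp, 0.042 for Mog, 0.065 for Cul3 and 0.015 for Kcne4 at 5 months, 0.121 for Zfyve9 and 0.037 for Cul3 at 15 months, and 0.112 for Pikfyve, -0.048 for Rab7 and 0.108 for Zfyve9 between ages. With quantile normalization it was -0.004 for Rab7, -0.045 for Chmp4b, -0.038 for Rbfox3, -0.029 for Scg2 and -0.050 for Rab5c at 5 months, and 0.009 for Hgs between ages. Leaving out 1 mouse at 5 months, values ran from -0.033 to 0.193 for Appl1, -0.089 to 0.091 for Cul3, -0.005 to 0.122 for Cx3cr1, -0.161 to 0.409 for Eea1, -0.160 to 0.105 for Fyco1, -0.540 to 0.034 for Kcne4, -0.195 to 0.057 for Mobp, -0.235 to 0.045 for Mog, -0.119 to 0.040 for Pik3c2b, -0.054 to 0.048 for Pik3c3, -0.270 to 0.099 for Pikfyve, -0.160 to 0.202 for Rab5a, -0.149 to 0.402 for Utp14b and -0.011 to 0.279 for Wdfy4. At 15 months they ran from -0.129 to 0.195 for Ap1s3, -0.709 to 1.195 for Clic6 and -0.725 to 0.088 for Kcne4. Between ages they ran from -0.135 to 0.044 for Hgs, -0.322 to 0.041 for Rab5a and -0.054 to 0.107 for Rab7. Other pseudocounts, trimmed-mean scaling and a minimum mean of 100 turned no sign.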
